A study of Homo sapiens with 9 samples.

Results

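The interleukin-1 (IL-1) family of ligands and receptors was followed in the triple-negative breast cancer line MDA-MB-231, a widely used established line, after exposure to ferroptosis inducers. The 9 members were taken by gene name from the 58735 genes counted in each library, and earlier results of these data were known when they were chosen. They comprise 5 agonist ligands (IL1A, IL1B, IL18, IL33 and IL36G), 1 antagonist (IL1RN) and 3 receptor chains (IL1R1, IL1RAP and IL1RL1). Poly(A)-selected RNA was sequenced in 9 libraries of this single line. Vehicle-treated cells received DMSO (n = 3). Erastin-R cells had survived increasing concentrations of erastin, which blocks cystine uptake through system xc- (n = 3). RSL3-R cells had survived increasing concentrations of RSL3, which inhibits the lipid peroxide reductase GPX4 (n = 3). All the groups share the same parental line, and no gene was altered in any of them. No cloning step is stated for the survivors, and nothing says whether libraries of a group came from separate cultures, so that p-values measure the spread between these libraries, which may be technical.

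Total counts ranged from 15405102 to 17273464 per library, and 3 counts, the lowest level taken as detected, equalled 0.174 to 0.195 library-scaled counts (CPM, counts scaled to the library total) depending on the library. Of the line's own markers, VIM, CD44, AXL, ZEB1 and EGFR were detected in every library, and of 5 genes taken as low in this line PGR had at most 2 counts and ESR1 at most 12. The other 3 were detected, with 927 to 1598 counts for ERBB2, 15 to 48 for EPCAM and 6 to 59 for CDH1, which encodes E-cadherin and was called higher in RSL3-R cells (log2 fold change 1.58, edgeR adjusted p = 0.00130). Erastin-R replicate 1 stood apart from the others: its squared difference from replicates 2 and 3 was 25.2 and 24.4 times the counting error, against 2.46 to 5.48 times for the pairs of the other conditions and 2.52 times for erastin-R replicates 2 and 3. Values without it are therefore given where a result rests on it. No 2 libraries held identical values or differed only by counting error.

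IL-1 family ligands are cytokines that alert neighbouring cells to damage or infection. IL-1α and IL-1β both bind IL1R1, which then recruits the accessory chain IL1RAP and signals through MYD88, IRAK kinases and TRAF6 to NF-κB and MAP kinases, while the product of IL1RN occupies IL1R1 without signalling. IL-1β and IL-18 need proteolytic cleavage, typically by caspase-1, to become active, whereas the precursor of IL-1α is already active when released from dying cells. IL-33 acts through IL1RL1 (ST2), which also uses IL1RAP, and IL-36γ is best known from keratinocytes.

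The most marked difference was in the 2 founding ligands. IL1A and IL1B were higher in both survivor populations than in vehicle-treated cells, and higher in RSL3-R than in erastin-R cells. IL18 was higher in erastin-R cells alone by adjusted p, IL1RAP rose modestly in both, and IL1R1 did not pass the test in either. IL1RL1 was lower in erastin-R cells. IL33, IL36G and IL1RN were at or near 0 throughout.

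Each comparison was made with edgeR's quasi-likelihood test in a single model of all 9 libraries, on counts scaled by TMM. Adjusted p is the Benjamini-Hochberg value over the 16188 genes that passed the filter on low counts, and a gene is called differentially expressed at an adjusted p under 0.05 with a log2 fold change (log2FC) of 1 or more in either direction. Of the 9 members, 6 passed that filter. In erastin-R against vehicle-treated cells, 2 members were called higher (6.7% of all genes tested were called higher) and 1 lower (6.66% of all genes). In RSL3-R cells 2 were called higher (6.02% of all genes) and 0 lower (4.08%). With the adjusted p alone, 4 members were higher and 1 lower in erastin-R cells, where 27.1% and 26.8% of all genes were. The same rule gave 3 higher and 0 lower in RSL3-R cells, where it gave 23.8% and 24.9% of all genes. The median log2FC over the 6 members was 0.67 (erastin-R) and 0.62 (RSL3-R), with 0.00 and 0.01 over all genes tested. The vehicle libraries are shared by both comparisons. IL1A, IL1B and IL1RAP are among the genes the study chose to display from these same libraries, so their direction is not independent evidence.

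**Figure D1:**
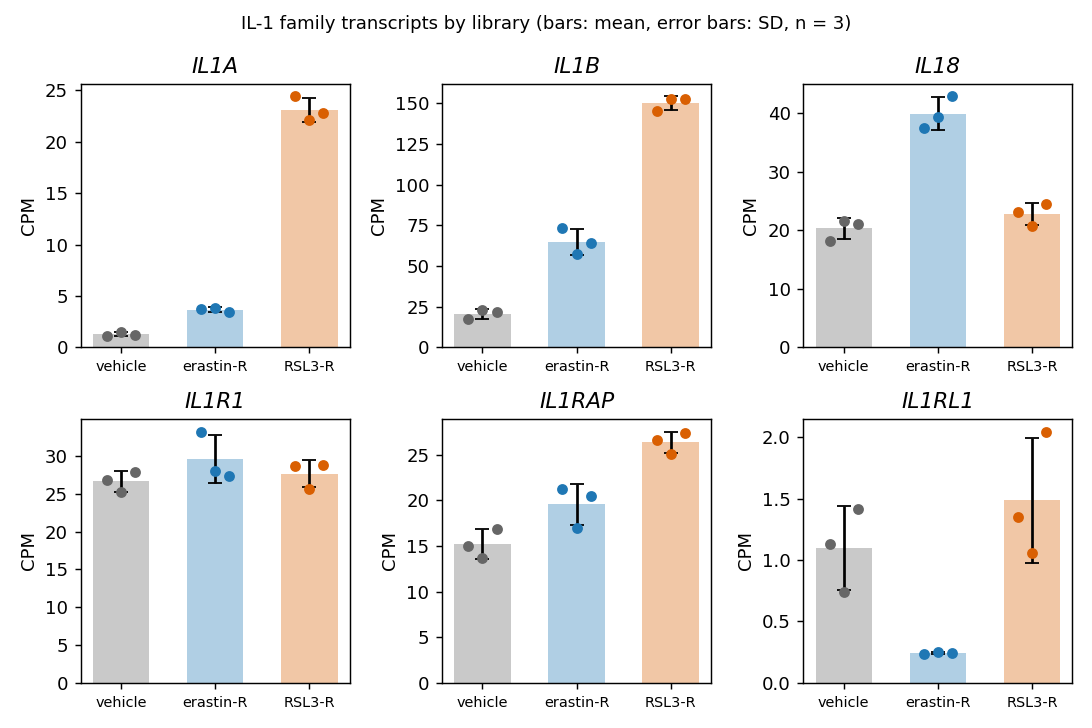
Normalised level in CPM (vertical axis, from 0) of the 6 members tested, in vehicle-treated, erastin-R and RSL3-R cells (horizontal axis). Points are single libraries, bars are means and error bars are SD (n = 3). IL1A and IL1B step up from vehicle to erastin-R to RSL3-R, IL18 is high in erastin-R only, IL1R1 overlaps across the 3 conditions, and IL1RL1 is lowest in erastin-R.

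IL1A (ENSG00000115008) encodes IL-1α and lies on the minus strand of chromosome 2 of GRCh38, from 112773915 to 112784590. Its level was 1.13, 1.48 and 1.23 CPM in the vehicle libraries, from 19 to 24 counts. In erastin-R cells it was 3.69, 3.88 and 3.40 CPM, and in RSL3-R cells 24.4, 22.1 and 22.8 CPM. The 3 conditions did not overlap, and the RSL3-R libraries stood furthest from the rest. The fitted increase was 2.84-fold in erastin-R cells (log2FC 1.51, standard error 0.17, edgeR adjusted p = 6.68e-06). In RSL3-R cells it was 17.9-fold (log2FC 4.16, standard error 0.15, adjusted p = 1.15e-10).

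IL1B (ENSG00000125538) encodes IL-1β and lies next to IL1A on the same strand, from 112829751 to 112836903. It was far better covered than IL1A, with 291 to 368 counts in the vehicle libraries. These correspond to 17.3, 22.7 and 21.9 CPM. Erastin-R libraries had 73.2, 57.4 and 64.4 CPM and RSL3-R libraries 145, 152.5 and 152.4 CPM. Again no library of one condition reached the range of another. IL1B was 3.15-fold higher in erastin-R cells (log2FC 1.65, standard error 0.11, edgeR adjusted p = 2.96e-08) and 7.26-fold higher in RSL3-R cells (log2FC 2.86, standard error 0.11, adjusted p = 1.53e-10). Without erastin-R replicate 1, its highest erastin-R library, the log2FC in erastin-R cells was 1.56.

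Because IL1A and IL1B rose together, the sequence just upstream of each gene is shown. The sequences are RefSeq's (build GRCh38.p14, minus strand, 5′ to 3′) and stop before the first base of the gene model used for counting. For both genes RefSeq's transcript starts lie downstream of that base, so the bases directly before those starts are not shown. They cover chr2:112784591-112784743 for IL1A and chr2:112836904-112837029 for IL1B.
IL1A upstream: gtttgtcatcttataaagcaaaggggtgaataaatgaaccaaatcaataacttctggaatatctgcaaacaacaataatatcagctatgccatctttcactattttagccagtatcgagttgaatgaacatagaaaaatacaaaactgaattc
IL1B upstream: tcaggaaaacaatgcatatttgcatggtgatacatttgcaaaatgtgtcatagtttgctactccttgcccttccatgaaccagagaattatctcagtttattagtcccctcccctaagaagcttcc

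RefSeq's windows of 300 bases (250 before a transcript start to 50 after it), found for 8 of the 9 members and not for IL18, were searched on both strands for the AP-1 word TGANTCA, the ATF4-C/EBP word TGATGNAA and the NF-κB consensus. Neither of the latter words occurred in a member's window, while 3.62% and 11.3% of the 35116 windows of all genes held them. These shares are per window, some members have several windows, and with only 8 members the absence was not tested. The AP-1 word, which 7.71% of all windows held, occurred in windows of IL1A, IL1RL1 and IL1RN and not in that of IL1B. IL1A held it at 2 places, the first 12 bases before a RefSeq start and the second 38 bases after it. Another RefSeq start lies further downstream, and the words lay 105 and 55 bases before that start. The gene model used for counting begins further upstream, and both words start downstream of its first base, at bases 86 and 136. They are shown with the word in capitals, at chr2:112784488-112784516 and chr2:112784444-112784466.
IL1A first AP-1 word: gcgaagaagacTGACTCAggcttaagctg
IL1A second AP-1 word: tcattggcgttTGAGTCAgcaaa
A word match describes the letters only, and no binding was measured.

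Per length of exon, IL1B exceeded IL1A in each library. The ratio of the 2 levels, in RPKM (normalised counts per kilobase of exon), was 10.5, 10.5 and 12.2 in the vehicle libraries and 13.6, 10.1 and 12.97 in the erastin-R libraries. In RSL3-R libraries it was 4.07, 4.73 and 4.59. The RSL3-R libraries thus lay below every other library, while vehicle and erastin-R libraries overlapped. No test was run on this ratio.

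IL18 (ENSG00000150782; chromosome 11, 112143251 to 112164117, minus strand) encodes a ligand that, like IL-1β, is activated by cleavage. It had 18.2, 21.7 and 21.1 CPM in vehicle libraries. Erastin-R libraries had 37.4, 39.4 and 42.9 CPM, all above both other conditions. RSL3-R libraries had 23.1, 20.8 and 24.5 CPM, which overlapped the vehicle range. In erastin-R cells IL18 was 1.96-fold higher (log2FC 0.97, standard error 0.10, edgeR adjusted p = 1.67e-06). This lies just under the minimum fold change for a call, and it was 1.02 without erastin-R replicate 1 and 1.02 without vehicle replicate 2, both past it. In RSL3-R cells the log2FC was 0.17 with a 95% interval of -0.05 to 0.38 (edgeR adjusted p = 0.185).

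The remaining ligands were scarcely counted. IL33 (chromosome 9, 6215786 to 6257983) had 0 counts in all 9 libraries, which allows up to 0.195 CPM by counting error. IL36G (chromosome 2, 112973203 to 112985665) had 3, 0 and 3 counts in vehicle, 0, 0 and 6 in erastin-R and 0, 3 and 1 in RSL3-R libraries. Those values overlap across the conditions and stay near the floor of 3 counts, except for erastin-R replicate 3. IL1RN (chromosome 2, 113107214 to 113134016), the antagonist that competes with both IL-1α and IL-1β, had 1 count in RSL3-R replicate 3 and 0 in the other libraries. No difference in these genes was detectable at this depth, and none was tested.

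IL1R1 (ENSG00000115594; chromosome 2, 102064544 to 102179874, plus strand) encodes the receptor that binds IL-1. It had 26.9, 25.2 and 27.9 CPM in vehicle, 33.2, 28.1 and 27.4 CPM in erastin-R and 28.6, 25.6 and 28.8 CPM in RSL3-R libraries. The 3 ranges overlapped. The log2FC was 0.15 in erastin-R cells (95% interval -0.05 to 0.35, edgeR adjusted p = 0.200) and 0.05 in RSL3-R cells (95% interval -0.15 to 0.26, adjusted p = 0.671). Erastin-R replicate 1 had the highest value of all, and without it the log2FC in erastin-R cells was 0.05.

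IL1RAP (ENSG00000196083; chromosome 3, 190514051 to 190659750, plus strand) encodes the accessory chain that IL1R1 and IL1RL1 share. Vehicle libraries had 14.96, 13.6 and 16.9 CPM, erastin-R libraries 21.3, 16.99 and 20.4 CPM and RSL3-R libraries 26.6, 25.1 and 27.4 CPM. The RSL3-R libraries were clear of the rest, and the lowest erastin-R library barely exceeded the highest vehicle library. IL1RAP was 1.74-fold higher in RSL3-R cells (log2FC 0.80, standard error 0.11, edgeR adjusted p = 4.22e-05). In erastin-R cells it was 1.29-fold higher (log2FC 0.37, standard error 0.11, adjusted p = 0.0129), and without vehicle replicate 2 that adjusted p was 0.0704. Both increases were under the minimum fold change. Gene counts do not separate the membrane form of IL1RAP from its soluble form.

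IL1RL1 (ENSG00000115602; chromosome 2, 102311502 to 102352037, plus strand) encodes ST2, the receptor of IL-33. It rested on few reads, with 19, 12 and 23 counts in vehicle libraries, 4 in each erastin-R library and 21, 17 and 35 in RSL3-R libraries. These are 1.13, 0.741 and 1.42 CPM in vehicle, 0.238, 0.254 and 0.243 CPM in erastin-R and 1.35, 1.06 and 2.05 CPM in RSL3-R libraries. Erastin-R libraries lay below all others, and vehicle and RSL3-R libraries overlapped. IL1RL1 fell by 2.13 on the log2 scale in erastin-R cells (standard error 0.46, edgeR adjusted p = 0.00130). The 12 counts summed over the erastin-R libraries have an exact Poisson 95% interval of 6.20 to 21.0, which covers counting error only. In RSL3-R cells the log2FC was 0.44 (95% interval -0.29 to 1.17, adjusted p = 0.311). IL1RL1 shares 1.65% of its exon bases with IL18R1 on the same strand, and the other members shared exon bases only with genes of at most 1 count.

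**Figure D2:**
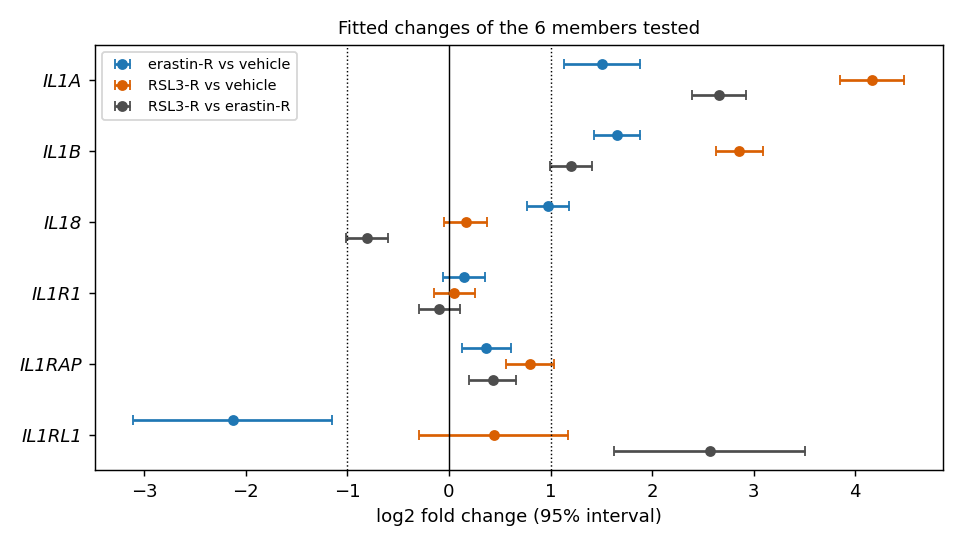
Fitted log2FC (horizontal axis) of the 6 members tested (rows) in the 3 comparisons, with 95% intervals from edgeR's model; dotted lines mark the minimum of 1 for a call in each direction. The intervals of IL1A and IL1B lie above 0 in all 3 comparisons, those of IL1R1 include 0 in all 3, and IL1RL1 has the widest intervals.

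Whether the 2 survivor populations differed was tested directly. Between RSL3-R and erastin-R cells, 3 members were called higher in RSL3-R cells (6.86% of all genes tested were) and 0 lower (3.48%). By adjusted p alone 4 were higher (22.3% of all genes) and 1 lower (26.9%). IL1A was 6.31-fold higher in RSL3-R cells (log2 difference 2.66, standard error 0.13, edgeR adjusted p = 3.10e-09). IL1B was 2.31-fold higher (log2 difference 1.21, standard error 0.10, adjusted p = 4.13e-07). IL1RL1 was 5.93-fold higher (log2 difference 2.57, standard error 0.44, adjusted p = 2.72e-04), which reflects its low count in erastin-R cells. IL1RAP was 1.35-fold higher (adjusted p = 0.00463), below the minimum fold change. IL18 went the opposite way and was 1.75-fold lower in RSL3-R cells (log2 difference -0.81, standard error 0.10, adjusted p = 1.33e-05), also below that minimum. For IL1R1 the log2 difference was -0.10 (95% interval -0.30 to 0.11, adjusted p = 0.425). Over all genes the split of calls in this comparison was 1111 higher and 563 lower with TMM, and 822 higher and 644 lower after quantile normalization. The 3 member calls were made under both.

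Levels per length set the members in order within each condition. In vehicle-treated cells IL18 (7.74 ± 0.70 RPKM, SD, n = 3) and IL1B (6.67 ± 0.94 RPKM) led and overlapped, followed by IL1R1 (3.77 ± 0.20), IL1RAP (1.31 ± 0.14), IL1A (0.604 ± 0.085) and IL1RL1 (0.191 ± 0.059). In erastin-R cells IL1B (21.0 ± 2.56 RPKM) stood first and IL18 (15.2 ± 1.06 RPKM) second, and IL1A (1.72 ± 0.11 RPKM) overlapped IL1RAP (1.69 ± 0.20 RPKM). In RSL3-R cells IL1B (48.4 ± 1.41 RPKM) was followed by IL1A (10.9 ± 0.56 RPKM), which had moved above IL18 (8.67 ± 0.70 RPKM), IL1R1 (3.91 ± 0.25 RPKM) and IL1RAP (2.28 ± 0.10 RPKM). IL1RL1 was lowest of the 6 in each condition.

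**Figure D3:**
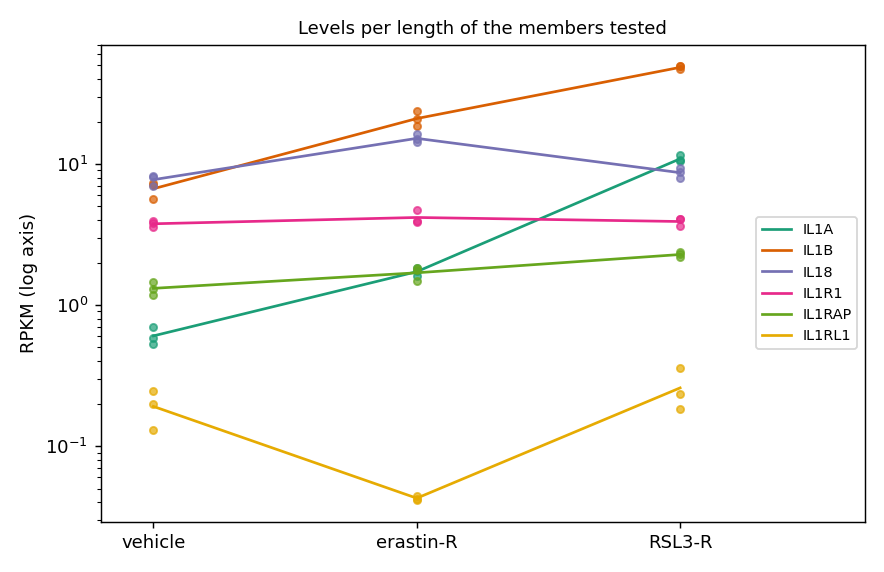
Level per length in RPKM (vertical log axis) of the 6 members tested in the 3 conditions. Points are libraries and lines join the means (n = 3). IL1A crosses IL1RAP, IL1R1 and IL18 between vehicle-treated and RSL3-R cells, and IL1B rises from 6.67 to 48.4 RPKM.

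IL1A and IL1B sit at one end of a block of 9 protein-coding genes on chromosome 2 (112773915 to 113134016, 360 kb), all of them IL-1 family ligands or antagonists. Only IL1A and IL1B of the 9 passed the filter on low counts. IL37, an anti-inflammatory member of the family, had 0 to 9 counts, IL36RN at most 3, IL36B at most 1, and IL36A and IL1F10 had 0 in all libraries. The receptors IL1R2, IL1R1, IL1RL2, IL1RL1, IL18R1 and IL18RAP form another block (101991844 to 102452565, 461 kb), of which 4 passed the filter. In that block IL1RL1 was called in erastin-R cells and IL18R1 in RSL3-R cells, and IL1R1 and IL1RL2 in neither comparison with vehicle.

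Of 8 further receptors and decoys, 5 passed the filter. In erastin-R cells 1 was called higher and 1 lower (6.7% and 6.66% of all genes tested), and in RSL3-R cells also 1 and 1 (6.02% and 4.08% of all genes). SIGIRR, a receptor-like protein that dampens IL-1 signalling, fell by 1.86 on the log2 scale in erastin-R cells (edgeR adjusted p = 1.27e-06), from 12.4 ± 0.74 to 3.43 ± 1.02 CPM (SD, n = 3). In RSL3-R cells SIGIRR fell by 1.52 on that scale (adjusted p = 7.31e-06), to 4.32 ± 0.45 CPM. IL18R1, the IL-18-binding chain, rose in RSL3-R cells from 0.609 ± 0.10 to 1.74 ± 0.76 CPM (log2FC 1.501, adjusted p = 0.0137), on 8 to 11 counts in vehicle and 14 to 39 in RSL3-R libraries. IL1RAPL1, a relative of IL1RAP best known from neurons, rose in erastin-R cells by a log2FC of 1.09 (adjusted p = 1.67e-05), and by 0.96 without erastin-R replicate 1, which is under the minimum. In RSL3-R cells it rose by 0.87 (adjusted p = 1.55e-04), also under the minimum. IL1R2, the decoy receptor for IL-1, had at most 2 counts in any library. IL18BP, the soluble inhibitor of IL-18, had a log2FC of 0.01 in erastin-R (adjusted p = 0.947) and 0.24 in RSL3-R cells (adjusted p = 0.113).

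Of 19 genes that carry the signal from the receptor, all passed the filter, 3 were called higher after erastin (6.7% of all genes) and 2 after RSL3 (6.02%), with 0 called lower by edgeR in either. Their median log2FC was 0.28 and 0.26, respectively. IRAK2, a kinase-like adaptor of the receptor complex, rose from 26.9 ± 1.42 CPM (SD, n = 3) to 61.8 ± 2.69 CPM in erastin-R (edgeR adjusted p = 2.59e-08) and 59.0 ± 3.42 CPM in RSL3-R cells (adjusted p = 4.01e-08). PELI2, a ubiquitin ligase that acts on IRAK proteins, rose in RSL3-R cells by a log2FC of 1.11 (adjusted p = 7.55e-08). PELI2 was also called higher in erastin-R cells (log2FC 1.005, adjusted p = 1.97e-07). UBE2V1, which helps build the ubiquitin chains made by TRAF6, rose in erastin-R cells by 1.44 (adjusted p = 1.07e-06). In RSL3-R cells UBE2V1 rose by 0.59 (adjusted p = 0.00326), under the minimum fold change. Its gene overlaps the read-through gene TMEM189-UBE2V1 on the same strand, so its counts are uncertain.

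Of 16 genes that process or release IL-1 family ligands, 14 passed the filter. CASP5, with 0 to 3 counts per library, and PYCARD, with 2 to 9, did not and were not tested. In erastin-R cells 2 were called higher and 1 lower, where 6.7% and 6.66% of all genes were. In RSL3-R cells 2 were called higher and 0 lower, where 6.02% and 4.08% of all genes were. NLRP1, an inflammasome sensor, rose from 56.4 ± 6.52 CPM (SD, n = 3) to 172 ± 5.42 CPM in erastin-R cells (log2FC 1.61, edgeR adjusted p = 2.50e-09). In RSL3-R cells it reached 165 ± 6.27 CPM (log2FC 1.55, adjusted p = 2.25e-09). CASP1, whose product cleaves the precursors of IL-1β and IL-18, fell by 1.34 on the log2 scale in erastin-R cells (adjusted p = 0.00206), from 4.01 ± 0.77 to 1.57 ± 0.75 CPM. In RSL3-R cells CASP1 was at 5.07 ± 1.07 CPM, and it was higher there than in erastin-R cells (log2 difference 1.68, adjusted p = 3.93e-04). CASP4, a caspase that senses cytosolic lipopolysaccharide, rose in RSL3-R cells from 38.6 ± 1.66 to 111 ± 5.12 CPM (log2FC 1.52, adjusted p = 1.89e-07). In erastin-R cells its log2FC was 0.69 (adjusted p = 2.72e-04), under the minimum fold change.

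Genes known to be induced by IL-1, which TNF also induces, were taken as a list of 18, of which 17 passed the filter. In RSL3-R cells 13 were called higher (6.02% of all genes) and 0 lower (4.08%), with a median log2FC of 1.36. In erastin-R cells 7 were called higher (6.7% of all genes) and 1 lower (6.66%), with a median of 0.83. By adjusted p alone 11 were higher and 3 lower there (27.1% and 26.8% of all genes). That rule gave 15 and 0 in RSL3-R cells (23.8% and 24.9%). Lower genes in erastin-R cells included NFKBIA (log2FC -0.45, edgeR adjusted p = 1.63e-04) and MMP1 (-0.96, adjusted p = 0.00295). In RSL3-R cells NFKBIA had 0.04 (adjusted p = 0.663) and MMP1 was called higher. TNFAIP3 had 0.29 and 0.13 and was called in neither. Between the survivors, 7 were called higher in RSL3-R cells (6.86% of all genes) and 0 lower (3.48%). CXCL8, a neutrophil chemokine, rose from 11.9 ± 0.93 CPM (SD, n = 3) to 34.3 ± 1.44 CPM in erastin-R and 74.5 ± 6.05 CPM in RSL3-R cells. PTGS2, the inducible cyclooxygenase, rose in RSL3-R cells from 4.79 ± 0.34 to 28.8 ± 1.17 CPM (log2FC 2.59, edgeR adjusted p = 4.94e-10). It was also called higher in erastin-R cells (log2FC 1.17, adjusted p = 1.69e-06). IL6 rose in erastin-R cells by a log2FC of 1.44 (adjusted p = 3.28e-07) and in RSL3-R cells by 2.44 (adjusted p = 1.49e-09). CSF2, a myeloid growth factor, was the gene called lower in erastin-R cells, and it differed by a log2 value of 2.88 between RSL3-R and erastin-R cells (adjusted p = 2.14e-07). CXCL1, a related chemokine, was higher in RSL3-R than in erastin-R cells by 2.36 on the log2 scale (adjusted p = 1.82e-08). The list was written with earlier results of these data known and gives no independent support for a direction.

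**Figure D4:**
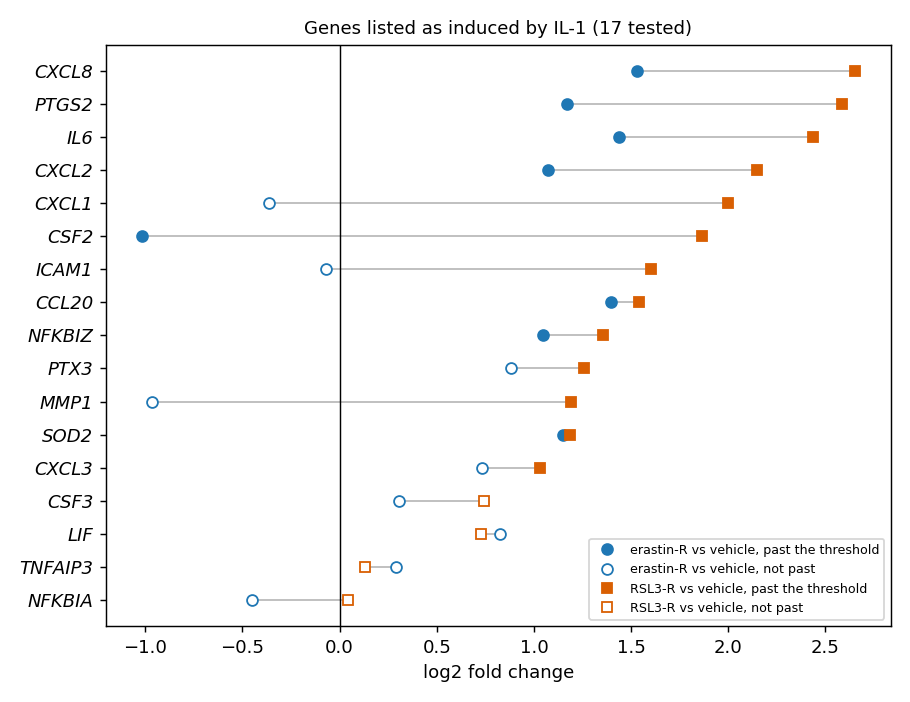
Log2 fold change against vehicle (horizontal axis) of the 17 tested genes listed as induced by IL-1 (rows, ordered by RSL3-R), with erastin-R as circles and RSL3-R as squares, filled where the gene was called. For RSL3-R 13 squares are filled, all above 0, and for erastin-R 7 filled circles lie above 0 and CSF2 below.

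The genes whose profile over the 9 libraries lay closest to each called member were found by the root mean square difference of centred log2 CPM. For IL1A these were NUPR1 (0.275), ANKFN1 (0.409) and INHBE (0.454). For IL1B they were ASS1 (0.134), CXCL8 (0.201) and PAPPA2 (0.216). For IL1RL1 they were GLDN (0.270), INHBB (0.278) and WFDC13 (0.283). The order is a description over 9 libraries that fall into 3 conditions.

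Markers of cells that commonly supply these cytokines were counted in the same libraries. The libraries came from a single cultured line, and no leukocytes or keratinocytes are described in the cultures. In RNA from bulk cells, fewer cells of a type and less RNA per cell cannot be told apart. The 8 leukocyte markers summed to 13.2 to 15.6 CPM in vehicle, 3.82 to 5.48 CPM in erastin-R and 7.46 to 8.24 CPM in RSL3-R libraries. CSF1R made up most of the vehicle sum, with a mean of 9.14 CPM there, 2.02 CPM in erastin-R and 2.21 CPM in RSL3-R cells. Of the 3 that could be tested, 2 were called lower in erastin-R cells, and 1 higher and 1 lower in RSL3-R cells. CD3E, MS4A1 and CD163 had at most 6 counts in any library. ITGAM had 0 to 5 counts in vehicle, 0 to 2 in erastin-R and 2 to 11 in RSL3-R libraries. LYZ had 7 to 13, 2 to 7 and 6 to 8 in that order, and none of these was tested. CSF1R fell by 2.17 on the log2 scale in erastin-R (edgeR adjusted p = 5.77e-07) and fell by 2.04 in RSL3-R cells (adjusted p = 1.05e-06). CD14 fell by 1.23 in erastin-R cells (adjusted p = 3.16e-04) and had a log2FC of -0.23 in RSL3-R cells (adjusted p = 0.367). PTPRC, the pan-leukocyte marker CD45, had 4 to 11 counts in vehicle, 3 to 11 in erastin-R and 19 to 24 in RSL3-R libraries, a rise in RSL3-R cells (log2FC 1.67, adjusted p = 0.00818). The part of these markers in the other results was not tested. Of 6 keratinocyte markers, KRT5, KRT14, KRT1, IVL and LOR had 0 counts in all libraries, and KRT10 had 255 to 541.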

How the data were processed

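RNA-seq of 9 MDA-MB-231 libraries, 3 each from vehicle-treated, erastin-R and RSL3-R cells, was used. The submitters' processing notes name HISAT2 2.0.5 and featureCounts 1.5.0-p3, and the methods state that expression values used uniquely mapped exonic reads. The strand setting of the counting is not given in the sources used here. The authors deposited a raw count per gene and an FPKM value (scaled to exon length and library total) made from it. The counts were tested here and the deposited FPKM values were not. Of the 58735 genes, 58724 have the coordinates of GENCODE release 29.

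Groups came from the sample labels. edgeR 4.0.16 in R 4.3.3 was run with TMM, filterByExpr and the quasi-likelihood test on all 9 libraries without covariates. Cufflinks, which the authors' methods name for their tests, needs alignments and was not run. The common dispersion was 0.00732. Standard errors came from the log2 fold change and F statistic, and RPKM from TMM-scaled CPM and exon length. Log2 CPM used a prior count of 3. Alternatives used DESeq2 1.42.0 and limma 3.58.1, and figures matplotlib 3.10.9. The fits were tested on simulated counts. All members are named. Of each pathway list and comparison, up to 2 called genes with the largest change and libraries apart are named, and IL18BP, IL1RL2, CSF2 in erastin-R cells and the RSL3-R level of CASP1 were named after their values were seen. So were CASP5, PYCARD, NFKBIA, MMP1, TNFAIP3, CD14, ITGAM and LYZ. For some list genes named in one survivor group, the value in the other group was also added after it was seen. The members and lists were chosen with earlier results of these data known.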

Additional observations from a re-analysis of the deposited data

Results flagged for a closer look

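For 3 members RSL3-R and erastin-R cells differed past both thresholds when compared directly by edgeR's quasi-likelihood test. IL18, lower in RSL3-R cells, and IL1RAP, higher there, passed the adjusted p alone. IL1A differed by 2.66 on the log2 scale (adjusted p = 3.10e-09), with all 3 RSL3-R libraries above all erastin-R libraries. IL1B differed by 1.21 (adjusted p = 4.13e-07), again with no overlap. IL1RL1 differed by 2.57 (adjusted p = 2.72e-04), on 4 counts in each erastin-R library against 17 to 35 in RSL3-R libraries.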

How the results depend on the processing

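Over DESeq2, RLE size factors, quantile normalization with limma, no filter on low counts, a model of only the 2 conditions compared and the replicate block, the number of members called was 3 for erastin-R, 2 for RSL3-R and 3 between the survivors, as with the settings of the report. Dropping the minimum fold change, which by construction adds smaller changes, gave 5 members and 8735 genes for erastin-R, 3 members and 7879 genes for RSL3-R, and 5 members and 7969 genes between the survivors. Leaving out 1 library at a time gave 3 to 4 members and 2043 to 2573 genes for erastin-R, 2 members and 1581 to 1779 genes for RSL3-R, and 3 members and 1514 to 2143 genes between the survivors. The highest counts of genes for all 3 were without erastin-R replicate 1. The fourth member was IL18, without erastin-R replicate 1 or without vehicle replicate 2. No tested member changed sign under any of these settings.

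Leaving out erastin-R replicate 1 for the pathway lists, chosen after seeing the data, lowered the called receptors and decoys in erastin-R cells to 1 (IL1RAPL1 was lost). Between the survivors it added CASP4 to the processing genes called, then 2, and IL6 to the genes induced by IL-1, with a log2 difference of 1.01.

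Same-numbered libraries did not deviate together (mean correlation -0.0049 over 9 pairs, and 2 of 9 libraries correlated best with their own number), so the numbers were not treated as pairs. With the replicate block the numbers of genes called were 2153, 1614 and 1652 in the order above, and no member's call changed. Depth limits IL33, IL36G and IL1RN, and makes IL1RL1 the least precise member tested: its log2 fold change in erastin-R cells ranged from -2.35 to -1.45 over the alternatives.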

Other observations

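Smaller changes, past the adjusted p from edgeR but under the minimum fold change, were found among the genes around the receptor. MYD88, the main adaptor of IL-1 receptor signalling, had a log2FC (log2 fold change) of -0.73 under erastin and -0.38 under RSL3 (adjusted p = 8.08e-06 and 0.00209). PELI1, a relative of PELI2, had 0.83 and 0.60, and PELI3 had -0.61 and -0.72. Of the 19 genes that carry the signal, 9 were higher and 5 lower by adjusted p alone in erastin-R cells, where 27.1% and 26.8% of all genes were. In RSL3-R cells 9 were higher and 6 lower, where 23.8% and 24.9% of all genes were. Among the genes of processing and release, GSDME, a pore-forming gasdermin, had a log2FC of 0.75 and 0.47, respectively. GSDMD, the gasdermin through which IL-1β leaves macrophages, had -0.11 (adjusted p = 0.372) and -0.37 (adjusted p = 0.00669). NLRP3, an inflammasome sensor, was called higher in erastin-R cells with 1.34 and had 0.72 in RSL3-R cells.
These genes were named after their values were seen.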
